A study of Rattus norvegicus with 15 samples.

Results

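The miRNAs of the Dlk1-Dio3 imprinted cluster were followed in small RNA libraries of kidney cortex from PCK rats, which carry a mutation of Pkhd1 and develop the kidney cysts of the recessive form of polycystic kidney disease. The cluster was taken as the rat names whose miRNA number belongs to the locus, and 48 of the 600 mature miRNA names in the table met that rule. Of the 46 numbers in the rule, 35 occurred in the table. All 15 libraries came from rats of 1 strain, labelled PCK/CrljCrlPkhd1pck/CRL, so every diet group carried the Pkhd1 mutation and no wild-type rat is among them. Rats ate Dyets chow with 0.01%, 0.4% or 4% NaCl from 6 weeks of age for 8 weeks, with no other treatment, and each diet has 5 libraries of total RNA from cortex. The labels' protocols mention pooling (2 to 3 rats in a pool and 2 pools for each condition), which does not match 5 libraries per diet, so a library may hold 1 rat or several. The p-values below measure the spread between these libraries, which may be partly technical.

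The Dlk1-Dio3 region is an imprinted domain, in which the parental origin of a chromosome decides what is transcribed. Protein-coding genes such as Dlk1, Rtl1 and Dio3 are read from the paternal chromosome, and long noncoding RNAs, from which most of the miRNAs are cut, are read from the maternal one, as worked out mainly in mouse. Each miRNA hairpin can give a mature miRNA from its 5′ arm (5p) and from its 3′ arm (3p), and bases 2 to 8 of the mature miRNA, the seed, guide it to its target mRNAs. In adult mammals these miRNAs are best known from brain and placenta.

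The 48 names came from 38 genes, all on chromosome 6 of the RefSeq assembly GRCr8. Sorted by start, the genes fell into 2 groups separated by a gap of 195534 bases, and the gap was used to divide the cluster. The first group, called the Rtl1 side here, spans chr6:134298084-134347910 and holds 7 names from 6 genes. Within it, Mir127, Mir434, Mir3543 and Mir136 lie inside the annotated protein-coding gene Rtl1, Mir770 lies inside the long noncoding RNA gene Meg3, and Mir341 lies in no other annotated gene. The second group, called the Mirg side after the mouse name of its host transcript, spans chr6:134543445-134579838 and holds 41 names from 32 genes. Of those genes, 15 lie inside the annotated long noncoding RNA gene LOC102555254 and 17 inside the neighbouring long noncoding RNA gene LOC120103623.

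RefSeq gave the mature sequence of 47 of the 48 names (all but miR-136-5p), and the 47 seeds were all different, so no members could be grouped by a shared seed. The 8 most abundant members are shown because they held 83.9% of the cluster's reads and carry the result with the least counting error. They are written 5′ to 3′ with the seed in capitals, as RefSeq lists them with GRCr8, the first 7 from the Mirg side and the last from the Rtl1 side.
miR-541-5p: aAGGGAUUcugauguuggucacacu
miR-411-5p: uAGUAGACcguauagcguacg
miR-409b: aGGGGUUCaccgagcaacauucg
miR-410-3p: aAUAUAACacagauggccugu
miR-381-3p: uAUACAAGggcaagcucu
miR-134-5p: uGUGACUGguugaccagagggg
miR-300-3p: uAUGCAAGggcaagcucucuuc
miR-127-3p: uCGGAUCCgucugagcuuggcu
miR-381-3p and miR-300-3p share an unbroken run of 14 bases although their seeds differ, and the rule for reads matching more than one name is not known. The values of this pair are therefore uncertain as separate values, as are those of miR-379-3p with miR-411-3p and miR-758-3p, and of miR-376a-3p with miR-376b-3p and miR-376c-3p, which differ from each other by 3 to 5 edits.

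The libraries held 4167498 to 7826411 reads assigned to miRNA names, and the cluster was a small part of each of them. Cluster names took 0.0308% ± 0.00816 of the reads on 0.01% NaCl, 0.0829% ± 0.0276 on 0.4% NaCl and 0.0769% ± 0.0228 on 4% NaCl (SD, n = 5 each), or between 1546 and 7086 reads in a library. Abundance within the cluster was uneven, since miR-541-5p alone held 31.8% of its reads and miR-411-5p 16.7%, while 40 of the 48 names averaged under 60 reads per library. The test used here (edgeR's quasi-likelihood test across all names, with Benjamini-Hochberg adjustment, called at an adjusted p under 0.05) took in 519 names after a filter on low counts, 35 of them in the cluster. A name could pass that filter through the diets in which it was higher, so the share called among the members that passed is a description. Levels below are scaled CPM, a library's reads scaled to a common total by the TMM method of edgeR.

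On the salt-deficient diet (0.01% NaCl), the miRNAs of the Mirg side were lower than on 0.4% NaCl, while the tested miRNAs of the Rtl1 side did not pass the test in either direction. Of the 35 tested members, 27 fell and 0 rose, where 9.06% of all 519 names fell and 7.71% rose. All 27 belong to the Mirg side, with 32 tested members, and the 3 tested members of the Rtl1 side (miR-127-3p, miR-434-3p and miR-3543) did not pass. The median log2 fold change was -1.46 on the Mirg side (range -2.28 to -0.89) and 0.35 on the Rtl1 side (range 0.34 to 0.38), against a median of -0.0027 over all names. When all 48 members entered the fit without a filter, 27 fell, where 7.83% of 600 names did. With the 8 members of at least 10 CPM on average over all libraries, 7 fell, where 6.78% of 339 names did.

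**Figure D1:**
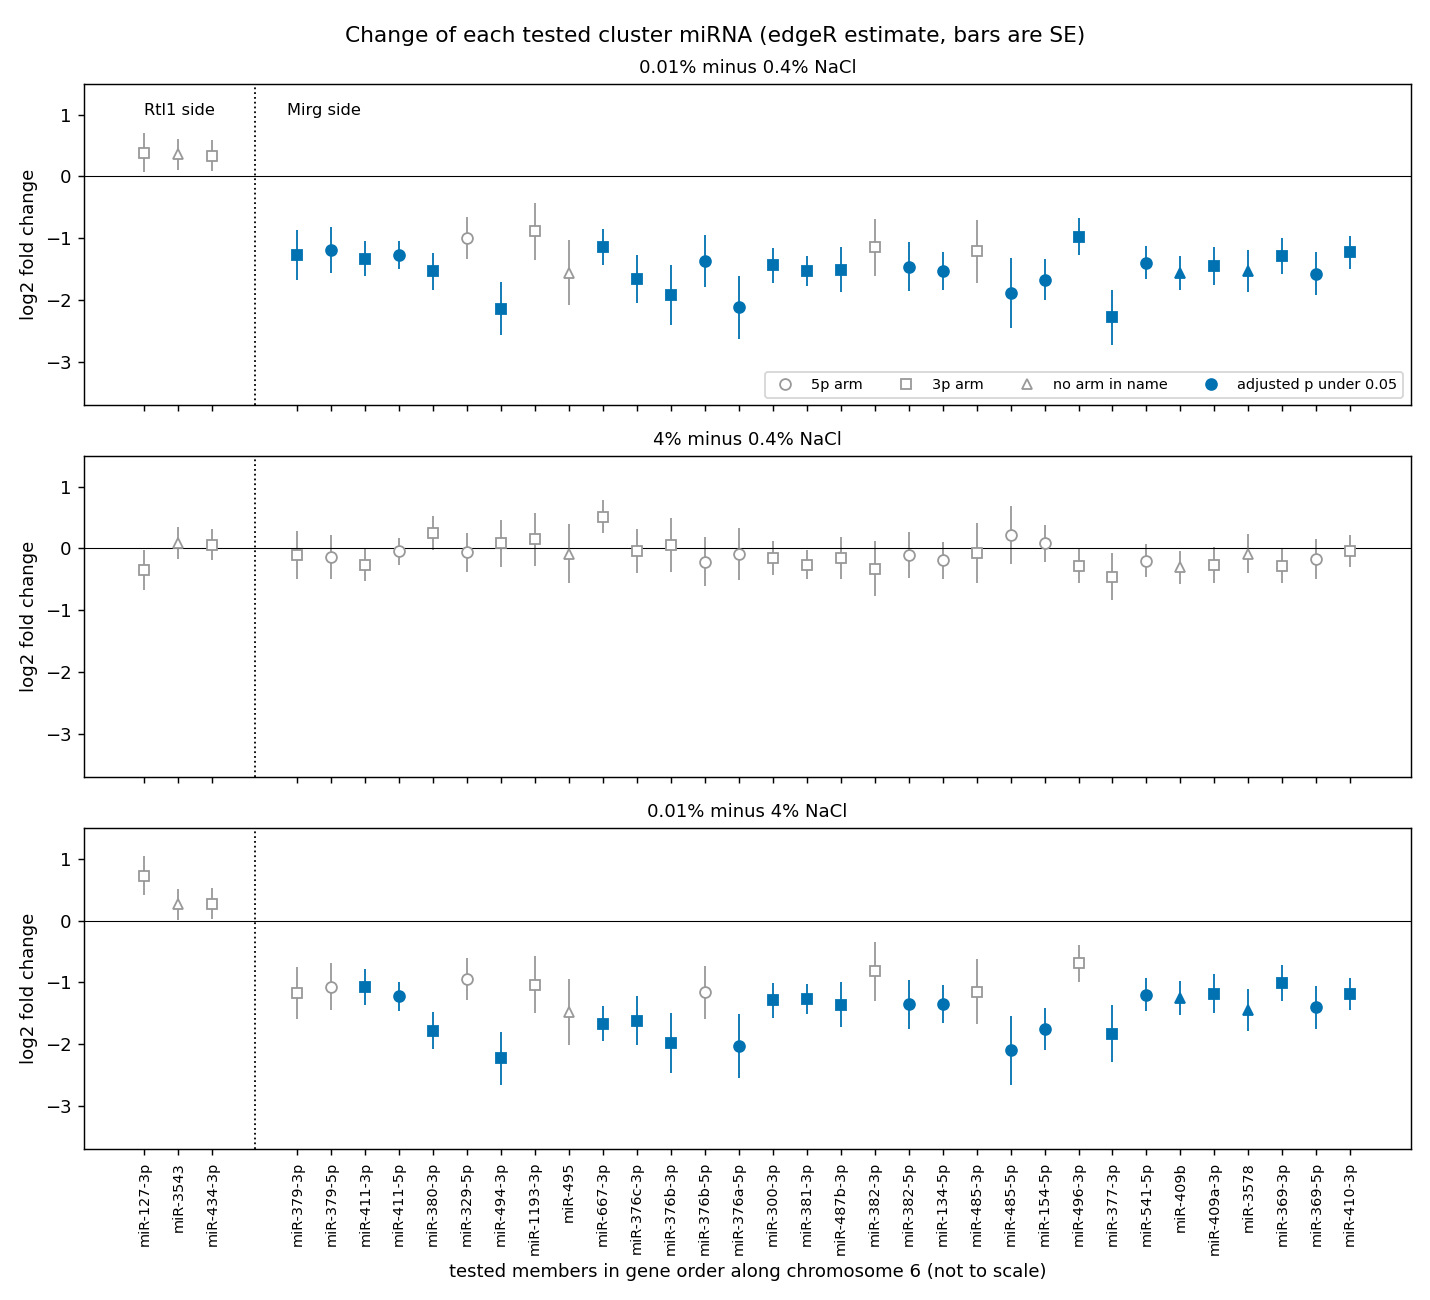
Log2 fold change (y axis, bars are SE) of each of the 35 tested members in gene order along chromosome 6 (x axis) for the 3 diet comparisons, with filled symbols for an adjusted p under 0.05 and symbols by arm. In the 0.01% minus 0.4% panel all 32 Mirg-side members lie below 0 and 27 are filled, the 3 Rtl1-side members lie between 0.34 and 0.38, and in the 4% minus 0.4% panel no symbol is filled. Of the Rtl1-side members, miR-434-3p and miR-3543 had near-equal reads.

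miR-541-5p, the most abundant member, which slows neurite growth in rat PC12 cells, had 88.6, 103, 83.4, 152 and 67.6 scaled CPM in libraries 1 to 5 of the 0.01% diet, 177, 259, 253, 191 and 426 in those of the 0.4% diet and 236, 195, 146, 253 and 308 in those of the 4% diet. Its highest library on 0.01% NaCl lay below its lowest on 0.4% NaCl, whereas the 4% and 0.4% libraries overlapped. Its mean was 99.1 ± 32.4 on 0.01% NaCl and 261 ± 99.1 on 0.4% NaCl (SD, n = 5 each), a log2 fold change of -1.40 ± 0.27 (SE, edgeR adjusted p = 0.00279).

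miR-411-5p measured 41.5, 54.3, 47.4, 71.2 and 55.8 scaled CPM on 0.01% NaCl, 102, 139.5, 157, 111 and 146 on 0.4% NaCl and 118, 94.7, 79.4, 143 and 199 on 4% NaCl. No 0.01% library reached any library of the other diets, and the log2 fold change between 0.01% and 0.4% was -1.28 ± 0.23 (edgeR adjusted p = 0.00226). miR-410-3p, from the last gene of the cluster, measured 23.0, 23.8, 19.8, 27.9 and 20.6 on 0.01% NaCl, 44.4, 63.1, 62.0, 38.0 and 62.4 on 0.4% NaCl and 49.8, 32.7, 29.0, 64.6 and 86.3 on 4% NaCl. Its 0.01% libraries were close together and all below the others, and its 4% libraries were the most spread, with a log2 fold change between 0.01% and 0.4% of -1.23 ± 0.26 (edgeR adjusted p = 0.00461).

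miR-381-3p had 18.4, 18.9, 14.5, 24.5 and 16.7 scaled CPM on 0.01% NaCl, 41.5, 55.2, 59.4, 38.0 and 74.1 on 0.4% NaCl and 42.0, 32.8, 29.5, 52.6 and 67.1 on 4% NaCl. Its close relative in sequence, miR-300-3p, had 13.2, 16.4, 10.8, 23.4 and 12.6 on 0.01% NaCl, 27.2, 39.8, 45.8, 33.2 and 62.3 on 0.4% NaCl and 35.7, 27.4, 22.8, 49.6 and 52.2 on 4% NaCl. In both, the 0.01% and 0.4% libraries did not overlap, and both had most in library 4 on 0.01% NaCl and in library 5 on 0.4% NaCl. The log2 fold changes between 0.01% and 0.4% were -1.53 ± 0.24 for miR-381-3p (edgeR adjusted p = 0.00143) and -1.44 ± 0.28 for miR-300-3p (edgeR adjusted p = 0.00279).

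miR-134-5p, which limits the size of dendritic spines in rat hippocampal neurons, had 12.8, 16.5, 12.3, 19.1 and 12.9 scaled CPM on 0.01% NaCl, 24.6, 41.8, 45.6, 26.1 and 76.2 on 0.4% NaCl and 36.2, 28.1, 22.0, 47.9 and 53.7 on 4% NaCl. miR-409b, counted under a name on the opposite strand of miR-409a-3p, had 20.7, 22.6, 16.5, 33.0 and 15.5 on 0.01% NaCl, 39.3, 68.2, 61.4, 50.0 and 101 on 0.4% NaCl and 55.1, 38.3, 34.6, 60.9 and 69.9 on 4% NaCl. For both, every 0.01% library lay below every 0.4% library, and both had most in library 5 on 0.4% NaCl. Whether the miR-409b reads came from its own strand is not known, as described below. The fold changes between 0.01% and 0.4% were -1.54 ± 0.31 for miR-134-5p (edgeR adjusted p = 0.00287) and -1.56 ± 0.28 for miR-409b (edgeR adjusted p = 0.00226), both on the log2 scale.

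miR-127-3p, which in mouse is cut from the strand opposite Rtl1 and can cleave the Rtl1 mRNA, was the one abundant member that did not fall. It had 28.3, 27.0, 28.1, 26.9 and 64.5 scaled CPM on 0.01% NaCl, 40.2, 22.0, 37.1, 23.4 and 11.5 on 0.4% NaCl and 15.4, 20.8, 23.0, 18.1 and 28.3 on 4% NaCl. Library 5 of the 0.01% diet had more than any other library, and the other 4 libraries of that diet lay within the range of the 0.4% libraries. Means were 34.98 ± 16.5 on 0.01% NaCl and 26.8 ± 11.8 on 0.4% NaCl (SD, n = 5 each), and the log2 fold change of 0.38 ± 0.32 did not pass (edgeR adjusted p = 0.440). Without library 5 of the 0.01% diet it was 0.03.

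**Figure D2:**
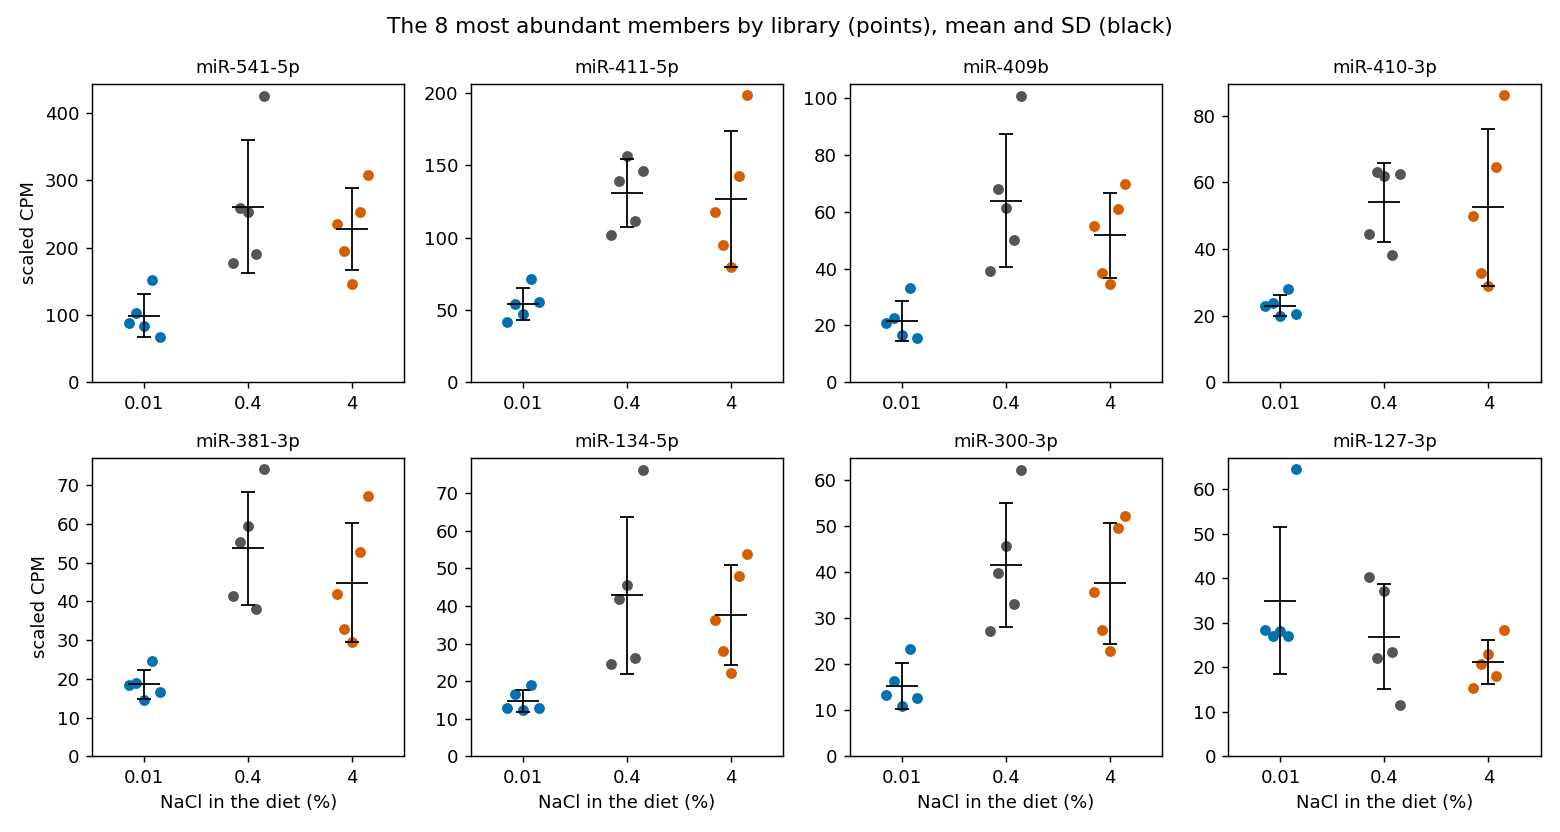
Scaled CPM (y axes, linear from 0) of the 8 most abundant members by NaCl in the diet (x axes), with points for the 5 libraries of each diet in library order and black marks for mean and SD. For the 7 Mirg-side members every 0.01% point lies below every 0.4% point, and for miR-127-3p the diets overlap, with library 5 of the 0.01% diet at 64.5.

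The other 2 tested names of the Rtl1 side, miR-434-3p and miR-3543, also had values above 0 that did not pass. miR-434-3p had 4.40, 4.31, 4.83, 5.11 and 6.87 scaled CPM on 0.01% NaCl, 3.26, 6.94, 4.01, 3.26 and 2.60 on 0.4% NaCl and 3.85, 5.08, 4.37, 3.70 and 4.10 on 4% NaCl. miR-3543 had 4.21, 4.31, 4.99, 5.11 and 7.04 on 0.01% NaCl, 3.26, 6.80, 4.01, 3.26 and 2.60 on 0.4% NaCl and 3.85, 5.08, 4.37, 3.92 and 4.10 on 4% NaCl. The diets overlapped for both, and the 2 names followed each other library by library. Log2 fold changes between 0.01% and 0.4% were 0.34 ± 0.25 for miR-434-3p (edgeR adjusted p = 0.389) and 0.35 ± 0.25 for miR-3543 (edgeR adjusted p = 0.356).

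The largest fold changes on 0.01% NaCl were in scarce members of the Mirg side. miR-377-3p, known from mesangial cells of the human and mouse kidney, where it raises fibronectin, had 0.574, 0.517, 0.333, 0.620 and 0.327 scaled CPM on 0.01% NaCl, 1.81, 2.00, 2.21, 1.99 and 3.90 on 0.4% NaCl and 2.45, 0.847, 0.729, 1.31 and 3.45 on 4% NaCl. The 0.01% values stand for 2 to 4 reads in a library. All lay below the 0.4% values, and the log2 fold change of -2.28 ± 0.45 was the largest in the cluster (edgeR adjusted p = 0.00279). miR-494-3p, which targets Atf3 in the injured mouse kidney, had 1.53, 1.21, 1.83, 2.32 and 1.31 on 0.01% NaCl, 3.26, 4.80, 5.82, 5.43 and 17.4 on 0.4% NaCl and 7.87, 4.74, 5.65, 10.2 and 10.6 on 4% NaCl. Library 5 of the 0.4% diet stood far above the rest of its diet, and the log2 fold change of -2.15 was -1.56 without it.

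The miR-376 family, whose precursors are edited by ADAR enzymes in mouse brain, had 4 tested names and all 4 fell, where 9.06% of all 519 names did. miR-376a-5p had 0.574, 0.172, 0.333, 0.620 and 0.491 scaled CPM on 0.01% NaCl, 0.724, 2.13, 1.00, 2.17 and 3.74 on 0.4% NaCl and 2.10, 0.677, 1.46, 2.18 and 3.02 on 4% NaCl (log2 fold change between 0.01% and 0.4% -2.12). miR-376b-3p had 1.91, 0.861, 1.16, 1.08 and 0.982 on 0.01% NaCl, 3.08, 2.27, 3.81, 4.17 and 9.59 on 0.4% NaCl and 3.67, 2.03, 2.37, 6.96 and 9.06 on 4% NaCl (-1.92). miR-376c-3p had 0.765, 0.689, 1.66, 0.929 and 1.31 on 0.01% NaCl, 2.35, 3.74, 2.81, 3.08 and 5.20 on 0.4% NaCl and 3.15, 3.56, 0.911, 3.92 and 5.39 on 4% NaCl (-1.66). All 5 libraries of the 0.01% diet lay below the 0.4% ones for these 3 names (edgeR adjusted p = 0.00743, 0.0107 and 0.00731, in the order named).

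miR-485-5p had 0.765, 0.517, 0.166, 0.465 and 0.327 scaled CPM on 0.01% NaCl, 0.905, 1.87, 1.00, 1.99 and 2.60 on 0.4% NaCl and 1.57, 1.19, 0.364, 3.92 and 3.02 on 4% NaCl, with 1 read in its scarcest library. Its fall (-1.89 ± 0.56 on the log2 scale, edgeR adjusted p = 0.0283) is the least firm among the members given library by library. Of 15 refits that each left out 1 library, 4 lost it, with edgeR adjusted p up to 0.0761. Of the members listed below without library values, miR-379-3p was kept in only 4 of 15 such refits, and miR-379-5p and miR-376b-5p in 10. miR-154-5p had 0.957, 0.517, 0.499, 0.929 and 0.654 on 0.01% NaCl, 1.81, 2.00, 2.01, 1.99 and 3.74 on 0.4% NaCl and 1.92, 2.54, 2.00, 1.74 and 4.10 on 4% NaCl. Its 0.4% libraries 1 to 4 were nearly equal and all above the 0.01% ones, and it fell by 1.68 on the log2 scale (edgeR adjusted p = 0.00287). miR-369-5p had 1.15, 2.41, 1.33, 2.48 and 1.47 on 0.01% NaCl, 3.08, 4.67, 5.62, 4.53 and 8.78 on 0.4% NaCl and 3.67, 5.59, 2.37, 5.22 and 6.91 on 4% NaCl, and it too had no overlap between these diets (-1.58 ± 0.34, edgeR adjusted p = 0.00513).

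Over the Mirg side, 22 of the 32 tested members had all 0.01% libraries below all 0.4% libraries, where 7.51% of all tested names did. The other members that fell were miR-667-3p, miR-379-3p, miR-379-5p, miR-376b-5p, miR-411-3p, miR-380-3p, miR-487b-3p, miR-382-5p, miR-496-3p, miR-409a-3p, miR-3578 and miR-369-3p, with log2 fold changes between -1.54 and -0.98. The 5 that did not pass were miR-329-5p (-1.002), miR-495 (-1.56), miR-382-3p (-1.15), miR-485-3p (-1.22) and miR-1193-3p (-0.89), with means between 8.0 and 13.3 reads per library. The 7 members with at least 100 reads per library on average ran only from -1.56 to -1.23, and the 25 scarcer ones from -2.28 to -0.89. The fold changes showed little order along the chromosome or with abundance, with Spearman's rho of -0.178 with gene order and 0.0607 with mean reads over the 32 members, which share libraries and depth. In LOC102555254, 10 of 13 tested members fell with a median of -1.33, and in LOC120103623 17 of 19 fell with a median of -1.51. Of all 519 names, 9.06% fell.

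**Figure D3:**
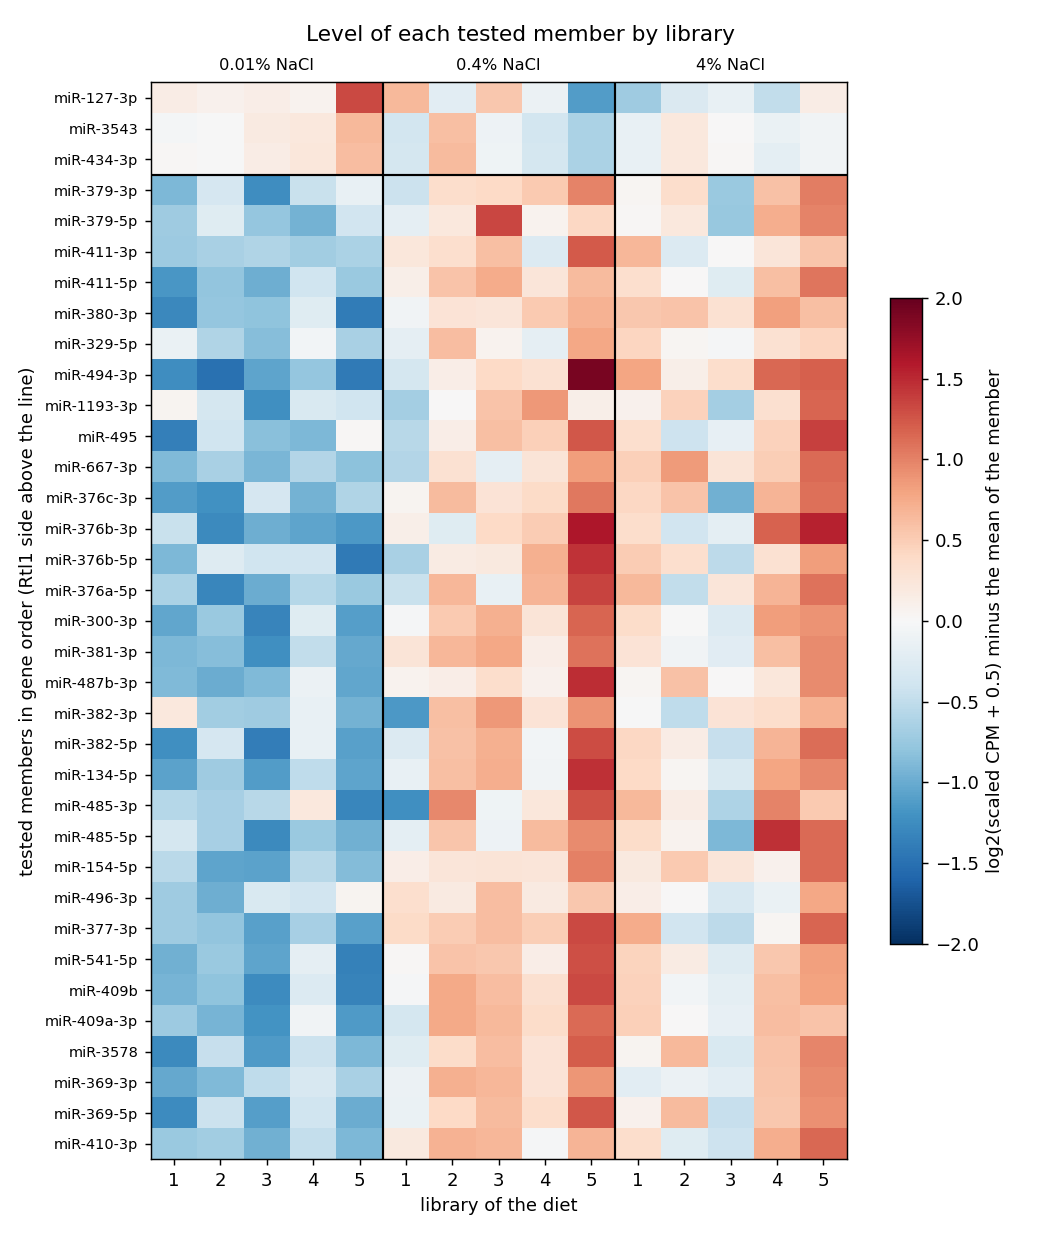
Level of each of the 35 tested members (rows, in gene order, Rtl1 side above the line) in each library (columns, 5 per diet), as log2(scaled CPM + 0.5) minus the member's mean over the 15 libraries, red for higher and blue for lower. The Mirg-side rows are mostly blue in the 0.01% libraries, and the 0.4% column numbered 5 is red in most of them, with the top value of its diet for 27 of 32 members.

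Libraries of a diet moved as a block across the Mirg side. On 0.01% NaCl library 4 ranked first for 20 of the 32 tested members. On 0.4% NaCl library 5 ranked first for 27 and library 1 last for 27, and on 4% NaCl library 5 ranked first for 27 and library 3 last for 24. The spread within a diet was thus shared by most members, so the members are not separate measurements of a diet. Summed over the Mirg side, the level was 255, 297, 239, 405 and 239.5 scaled CPM on 0.01% NaCl, 518, 772, 799.6, 582 and 1133 on 0.4% NaCl, and 674, 537, 426, 791 and 993 on 4% NaCl. The highest 0.01% sum lay below the lowest sums of the other diets. In bulk cortex, fewer cells that make these miRNAs and less of them per cell cannot be told apart.

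On 4% NaCl no member differed from 0.4% NaCl in the test. Of the 35 tested members 0 were called, as were 0% of all 519 names (edgeR quasi-likelihood test), and DESeq2 and limma-voom also called 0. At an unadjusted p under 0.05 there were 0 members and 27 names in all (5.2%). The members' median log2 fold change was -0.11 (range -0.46 for miR-377-3p to 0.52 for miR-667-3p), against -0.02 over all names. For miR-541-5p the difference of -0.20 had a 95% interval of -0.76 to 0.36, and for miR-411-5p that of -0.05 had one of -0.53 to 0.43. A change inside those limits could have been missed, given the spread between libraries. Over the Mirg side the intervals reached from -1.27 for miR-382-3p to 1.21 for miR-485-5p.

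The miRNAs of the Mirg side were also lower on 0.01% than on 4% NaCl, a comparison that shares the 0.01% libraries with the one against 0.4% NaCl. Of the 35 tested members 23 were lower on 0.01% NaCl and 0 higher, where 13.1% of all 519 names were lower and 7.32% higher. All 23 were of the Mirg side, whose median was -1.28 (range -2.23 to -0.69). miR-494-3p had the largest difference (-2.23 ± 0.43, edgeR adjusted p = 0.00291), and miR-541-5p (-1.20 ± 0.27, edgeR adjusted p = 0.00716) and miR-411-5p (-1.23 ± 0.23, edgeR adjusted p = 0.00290) were lower as well. For 17 members the libraries did not overlap, where 9.63% of names had all 0.01% libraries lower. miR-127-3p had a value of 0.73 ± 0.32 that did not pass (edgeR adjusted p = 0.119).

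The 2 sides of the cluster were set against each other within each library. The Rtl1-side sum was 40.4, 38.6, 41.9, 41.5 and 84.4 scaled CPM on 0.01% NaCl, 50.1, 40.8, 49.0, 32.8 and 18.5 on 0.4% NaCl, and 25.9, 36.6, 34.8, 29.6 and 41.9 on 4% NaCl. The Mirg side held 6.46 ± 2.56 times as much as the Rtl1 side on 0.01% NaCl, 24.9 ± 20.5 times on 0.4% NaCl and 20.7 ± 6.74 times on 4% NaCl (SD, n = 5 each). Library 5 decided the 0.4% value, since that library alone had 61.2 times as much and the other 4 had 10.3 to 18.9 times. Without it the 0.4% mean was 15.8 ± 3.81, below the 4% mean and still above the 0.01% mean. These sums count both names of the near-equal opposite-strand pairs described below. With all 5 libraries but without the 3 opposite-strand names, the Mirg side held 6.68 ± 2.68, 25.8 ± 21.8 and 21.8 ± 7.14 times as much on 0.01%, 0.4% and 4% NaCl. As an example of one member from each side, the ratio of the most abundant of them, miR-541-5p over miR-127-3p, was taken as log2 of scaled CPM + 0.5. It was chosen after the values had been seen, so it is a description, and the difference between the sides was not tested. It was 1.63, 1.91, 1.55, 2.48 and 0.0674 on 0.01% NaCl, 2.12, 3.53, 2.75, 3.00 and 5.15 on 0.4% NaCl, and 3.90, 3.19, 2.64, 3.77 and 3.42 on 4% NaCl. All 0.01% values lay below all 4% values, and 1 of them lay above the lowest 0.4% value.

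The log2 ratio averaged 1.53 ± 0.894 on 0.01% NaCl and 3.31 ± 1.14 on 0.4% NaCl (SD, n = 5 each), a difference of -1.78. Between 0.01% and 4% NaCl (3.38 ± 0.5003) the difference was -1.86. Between 4% and 0.4% NaCl it was 0.0733. Library 5 of the 0.01% diet had the most miR-127-3p and the least miR-541-5p of its diet, and library 5 of the 0.4% diet had the least miR-127-3p and the most miR-541-5p.

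**Figure D4:**
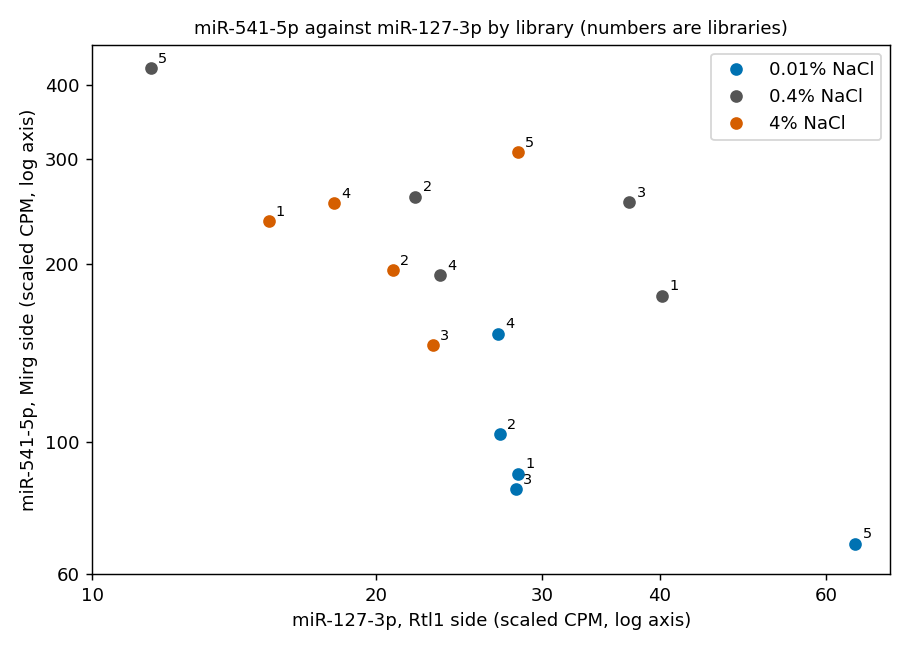
miR-541-5p of the Mirg side (y axis, scaled CPM, log axis) against miR-127-3p of the Rtl1 side (x axis, scaled CPM, log axis) in each of the 15 libraries, coloured by diet and numbered within it. The 0.01% libraries lie lowest, between 67.6 and 152 for miR-541-5p, and the libraries numbered 5 of the 0.01% and 0.4% diets stand at opposite corners.

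On the Mirg side, both the 5p and the 3p names were mostly lower on 0.01% NaCl, counted over names from different hairpins. Among the 5p names 10 of 11 tested fell with a median log2 fold change of -1.46, among the 3p names 15 of 18 with a median of -1.39, and among names with no arm 2 of 3. Of all 519 names, 9.06% fell. Where both arms were tested, both fell in miR-369, miR-376b, miR-379 and miR-411. In miR-382 and miR-485 the 5p arm fell and the 3p arm did not pass (edgeR adjusted p = 0.102 and 0.113). Both arms were listed for 10 hairpins of the cluster. Their reads, summed over all libraries, were far from equal in some hairpins, as for miR-411 with 8767 reads of the 5p and 357 of the 3p arm, miR-134 with 2691 of the 5p and 64 of the 3p arm, and miR-409a with 73 of the 5p and 616 of the 3p arm. They were close in others, as for miR-376a with 121 of the 5p and 108 of the 3p arm.

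The ratio of the arms was tested with limma in 107 rat hairpins with a mean of at least 10 reads on each arm, 4 of them in the cluster. No ratio was called in any of the 3 comparisons, 0 of 107 (0%) each, while 8 (7.48%), 5 (4.67%) and 19 (17.8%) of the 107 had an unadjusted p under 0.05 for 0.01% against 0.4%, 4% against 0.4% and 0.01% against 4%. For miR-411 the log2 ratio of 5p to 3p was 4.30 ± 0.289 on 0.01% NaCl and 4.49 ± 0.417 on 0.4% NaCl (SD, n = 5 each), and for miR-379 it was 0.853 ± 0.380 on 0.01% NaCl and 0.848 ± 0.612 on 0.4% NaCl. miR-369 and miR-376b, the other 2, differed by -0.18 and 0.42 in log2 ratio between 0.01% and 0.4%, with SE of 0.21 and 0.33. The 95% intervals of these differences between 0.01% and 0.4% NaCl, not adjusted for the number of hairpins, were -0.66 to 0.28 for miR-411, -0.52 to 0.53 for miR-379, -0.62 to 0.26 for miR-369 and -0.29 to 1.13 for miR-376b. Changes in arm use inside those limits could have been missed, given the spread between libraries.

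In 3 pairs, names of the cluster lie on opposite strands of the same bases, and their sequences are shown because they bear on which strand the reads came from. Bases in capitals pair with the other name of the pair, read on the opposite strand.
miR-3543: cAGGAGUCGAGUGAUGGUUCAAA
miR-434-3p: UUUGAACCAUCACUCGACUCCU
miR-409b: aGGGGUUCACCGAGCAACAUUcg
miR-409a-3p: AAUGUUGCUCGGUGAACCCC
miR-3578: GCGAAUAUAACACGGUCGAUCU
miR-369-5p: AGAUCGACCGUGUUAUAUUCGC
miR-3543 and miR-434-3p pair over 22 bases, miR-3578 and miR-369-5p over 22, and miR-409b and miR-409a-3p over 20. Over all libraries miR-3543 had 389 reads and miR-434-3p 388, with equal counts in 10 of 15 libraries and at most 1 read between them in any. Likewise miR-3578 had 340 reads and miR-369-5p 5 fewer, at most 2 apart in a library. miR-409b differed from that, with 3911 reads against 616 for miR-409a-3p and 5.46 to 8.04 times as many in each library. The log2 ratio of miR-409b to miR-409a-3p had an SD of 0.150 over the 15 libraries. Among all 600 names, 29 pairs overlap on opposite strands, and in 13 of them the log2 ratio of the 2 names had an SD under 0.1 over the libraries. Whether reads were assigned by strand is not stated in any label or file header. The reads of miR-3543 and miR-434-3p, and those of miR-3578 and miR-369-5p, therefore cannot be told apart, and each of these near-equal pairs is best taken as 1 measurement. Reads counted as miR-409b cannot be assigned to its own strand or to that of miR-409a-3p either. The level and fall of miR-409b may thus not be separate from those of miR-409a-3p. Without the 3 opposite-strand names, 25 of 32 tested members fell between 0.01% and 0.4% NaCl and 21 of 32 between 0.01% and 4%. Of all 519 names, 9.06% and 13.1% were lower in these comparisons.

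**Figure D5:**
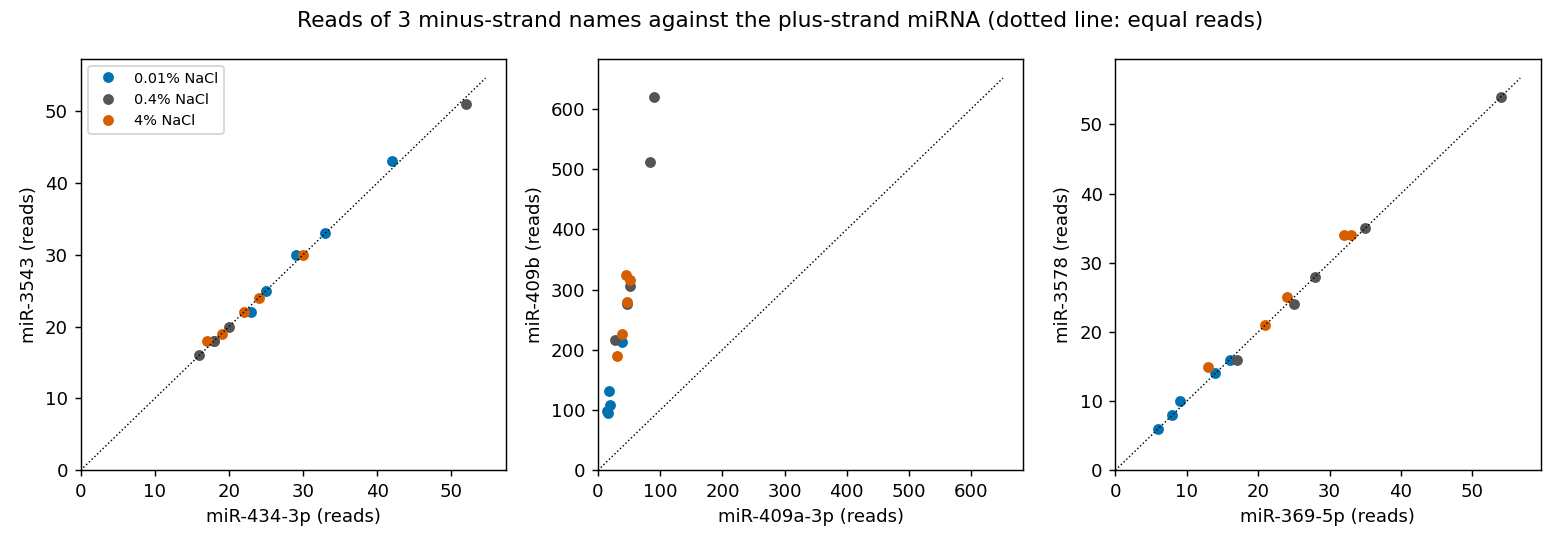
Reads per library of the 3 minus-strand names (y axes) against the plus-strand miRNA of the same bases (x axes), coloured by diet, with a dotted line for equal reads. Points for miR-3543 and miR-3578 lie on or next to the line, and those for miR-409b lie above it, at 5.46 to 8.04 times the reads of miR-409a-3p.

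The 13 members that were too scarce to be tested followed the same division by side in the means of their sums, which carry no test and overlapped between diets. The 9 of the Mirg side (miR-299a-3p, miR-323-3p, miR-758-3p, miR-666-3p, miR-543-3p, miR-376a-3p, miR-134-3p, miR-668 and miR-409a-5p) summed to 4.44 ± 1.42 scaled CPM on 0.01% NaCl, 11.4 ± 5.23 on 0.4% NaCl and 9.47 ± 3.18 on 4% NaCl (SD, n = 5 each). Their ranges were 2.83 to 6.66, 6.16 to 19.3 and 5.47 to 13.4. Among them miR-666-3p was not lower on 0.01% than on 0.4% NaCl (means of 0.534 and 0.512). The 4 of the Rtl1 side (miR-770-5p, miR-136-3p, miR-136-5p and miR-341) summed to 4.15 ± 1.19 on 0.01% NaCl, 3.40 ± 1.21 on 0.4% NaCl and 4.16 ± 1.29 on 4% NaCl. One further rat name lies within the span, miR-3592, which overlaps miR-382-3p on the opposite strand and was too scarce to test at 0.196 ± 0.134, 0.978 ± 0.640 and 0.614 ± 0.369 scaled CPM on 0.01%, 0.4% and 4% NaCl.

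The 6 names whose levels ran most like miR-541-5p were themselves members, followed closely by names from elsewhere in the genome. Over the 15 libraries and 338 other names with a mean of at least 10 CPM, Pearson's r of log2 levels was 0.991 for miR-409b, 0.980 for miR-300-3p, 0.976 for miR-134-5p, 0.969 for miR-381-3p, 0.932 for miR-411-5p and 0.926 for miR-410-3p. The next were no members, with 0.909 for miR-194-5p, a miRNA of kidney tubules, and 0.881 for miR-653-5p. miR-127-3p stood at place 266 with r of -0.635. These values describe libraries that also differ by diet and depth.

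Of the other imprinted miRNAs listed for comparison, miR-335 from the Mest gene fell on 0.01% NaCl and miR-298-5p from the Gnas region did not pass. miR-335 averaged 4.52 ± 0.784 scaled CPM on 0.01% NaCl and 11.8 ± 4.69 on 0.4% NaCl (SD, n = 5 each), a log2 fold change of -1.38 ± 0.26 (edgeR adjusted p = 0.00245), and it was lower than on 4% NaCl as well (-0.99 ± 0.26, edgeR adjusted p = 0.0143). miR-298-5p had -0.47 ± 0.53 between 0.01% and 0.4% (edgeR adjusted p = 0.577).

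Markers of cell types that cortex could hold were read beside the cluster, over lists of 2 to 7 miRNAs each. The summed levels of some lists are mostly those of 1 name. On 0.01% NaCl, miR-10a-5p averaged 354478 of the mean tubule sum of 467238 scaled CPM. On the same diet, miR-143-3p averaged 49596 of the mean smooth muscle sum of 50256. Kidney tubule miRNAs were abundant in every library (summed level 354161 to 653573 scaled CPM on 0.01%, 268570 to 461851 on 0.4% and 316562 to 388320 on 4% NaCl), and 1 of the 5, miR-194-5p, was lower on 0.01% NaCl than on both other diets. Another 2 of the 5, miR-30a-5p (0.37, edgeR adjusted p = 0.0348) and miR-10a-5p (0.61, edgeR adjusted p = 0.0446), were higher on 0.01% than on 4% NaCl and did not pass against 0.4%. Smooth muscle miRNAs (40361 to 72343 on 0.01%, 19188 to 36025 on 0.4% and 23363 to 28930.3 on 4%) had 2 of 3 members higher on 0.01% NaCl than on either other diet. Stromal miRNAs (3661 to 4063 on 0.01%, 1844 to 2747 on 0.4% and 1589 to 4026 on 4%) had 2 of 3 members higher on 0.01% than on 0.4% NaCl and 0 called between 0.01% and 4%. Of 6 neuronal and neuroendocrine miRNAs in the table, 1, miR-9a-5p, was called higher on 0.01% NaCl than on either other diet and 0 were called lower. Between 0.01% and 0.4%, miR-129-5p (-0.76, edgeR adjusted p = 0.0683), miR-7a-5p (-0.52), miR-218a-5p (-0.40) and miR-375-3p (-0.33) had values below 0. miR-138-5p (0.25) had one above 0, and none of these passed. The summed level was 847 to 1134 on 0.01%, 724 to 1137 on 0.4% and 674 to 1063 on 4%. miR-124-3p, a defining marker of neurons, is not in the table. Leukocyte miRNAs (1774 to 2294 on 0.01%, 1521 to 2656 on 0.4% and 1547 to 4345 on 4%) had 0 members called between 0.01% and 0.4%, and 1 of 4, miR-150-5p, was lower on 0.01% than on 4% NaCl (-1.11, edgeR adjusted p = 0.0247). Endothelial (10038 to 12621 on 0.01%, 9742 to 12980.2 on 0.4% and 9553 to 11768 on 4%), red blood cell (9.32 to 34.4 on 0.01%, 5.04 to 61.1 on 0.4% and 7.98 to 18.04 on 4%) and skeletal muscle miRNAs (37.9 to 52.8 on 0.01%, 35.3 to 56.4 on 0.4% and 38.8 to 55.03 on 4%) had 0 members called in any of the 3 comparisons. No list had a member called between 4% and 0.4% NaCl. The part of cell makeup in the fall of the Mirg side was not tested.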

How the data were processed

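Cortex RNA of 15 samples was made into TruSeq small RNA libraries and sequenced on a HiSeq, per the labels' protocols. Cutadapt, Bowtie and DESeq are named, without versions, in the submitters' processing notes. The authors deposited raw counts of reads for 600 mature names, 445 of them from rat. Their genome build, miRNA database, strand rule and handling of reads with several matches were not given in the sources used here. A further 90 columns of per-sample values in the authors' comparison tables were not used.

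Counts were analysed in R 4.3.3 with edgeR 4.0.16 (TMM, filterByExpr, robust quasi-likelihood fit of 3 diet means over all 15 libraries), adjusted by Benjamini-Hochberg over the 519 names tested. Arm ratios were fitted with limma 3.58.1 on log2(scaled CPM + 0.5), and DESeq2 1.42.0 and limma-voom were alternatives. Both procedures were first tested on simulated data. Libraries of a diet differed by more than sampling noise (chi-square per degree of freedom 31.0 to 1330.1 over 30 pairs). That comparison cannot tell separate rats from separate preparations of the same RNA, and no library was left out as a duplicate. Sequences and positions are RefSeq's for GRCr8.

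Named members are the 8 most abundant, the 8 with the largest change among those called in 0.01% against 0.4%, and those of opposite sign to the median, 18 in all. The members and lists were chosen with earlier results of these data known, and the ratio of miR-541-5p to miR-127-3p after its values were seen. PCR reads carry no molecular identifiers, so limits drawn from read counts cover counting error only.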

Additional observations from a re-analysis of the deposited data

Results flagged for a closer look

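In 63 sets of 5 libraries (the 18 named members, the sums of the 2 sides and the log2 ratio of miR-541-5p to miR-127-3p, each by diet) 7 had 1 library far from the other 4 by Dixon's test, which chance gives in about 1 of 20 sets. On 0.01% NaCl, library 5 had 64.5 scaled CPM of miR-127-3p, where the next highest had 28.3, and a Rtl1-side sum of 84.4, where the next highest had 41.9. These 2 flags share reads, because miR-127-3p makes up most of that sum. On the same diet, library 1 had 1.91 of miR-376b-3p, where the next had 1.16.

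On 0.4% NaCl, library 5 stood above the others for 4 Mirg-side members. It had 17.4 of miR-494-3p, where the next highest had 5.82, 9.59 of miR-376b-3p, where the next had 4.17, 3.90 of miR-377-3p, where the next had 2.21, and 3.74 of miR-154-5p, where the next had 2.01. Without that library 21 of 36 tested members, all of the Mirg side, fell between 0.01% and 0.4% NaCl, in place of 27 of 35. Over all refits without 1 library, 69 to 107 of all names were called in this comparison, in either direction.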

How the results depend on the processing

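No paired analysis was possible because the labels number no replicates, so no library of one diet is tied to a library of another. With a minimum mean of 10 CPM in place of the count filter, 7 of the 8 members then tested were lower on 0.01% than on 0.4% NaCl (27 of 35 otherwise) and 7 were lower on 0.01% than on 4% NaCl (23 otherwise), since fewer names entered the test, and over all names 55 were called between 0.01% and 0.4% (87 otherwise). Scaling by library totals alone moved the median of all names to -0.19 between 0.01% and 0.4% NaCl and called 29 members, with the Rtl1-side median at 0.17. Because names in general moved down under that scaling, its count of 29 is not a stronger result for the cluster. The other scalings, filters and tools gave 23 to 29 members between 0.01% and 0.4% NaCl, and 0 between 4% and 0.4% in every one. A refit that dropped 1 library per diet, the one with the largest share in names of other species, gave 21 and 0. Over all 11 of these settings, 55 to 115 of all names were called between 0.01% and 0.4% NaCl, in either direction. Leaving out each library in turn gave 21 to 31 members for 0.01% against 0.4%, 0 for 4% against 0.4% and 20 to 27 for 0.01% against 4%, and 21 of the 27 and 20 of the 23 calls were kept in all 15 refits. In those refits 35 to 37 members were tested, and 69 to 107, 0 and 74 to 123 of all names were called, in either direction. Of the calls between 0.01% and 0.4%, miR-379-3p was kept in 4 refits and miR-379-5p and miR-376b-5p in 10. Arm ratios of the cluster had 0 calls throughout. The log2 ratio of miR-541-5p to miR-127-3p, added after seeing the data, ranged from -2.08 to -1.32, from -0.224 to 0.532 and from -2.09 to -1.49 over the same 3 comparisons without 1 library, with the sign between 4% and 0.4% turning in 5 of 10. Most members had few reads (median of 22.3 per library among those tested), which limits what could be detected for single names.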
